A study of Mus musculus with 9 samples.

Results

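The phospholipase C and protein kinase C genes described here were 10 of 19938 measured genes: Plcb1, Plcb3, Plcb4, Plcd1, Plcd3, Plce1, Plcg1, Plcg2, Prkca and Prkcb. The set was chosen with earlier results of these data known. Its 10 members were matched by gene symbol in the annotation of the array. Of these, Plce1, Prkcb and Plcg2 were picked because their intensities on these same arrays differed widely between the lines, so their values are a description and carry no test. The other 7 were compared with limma, and their p-values do not account for how the set was chosen. Each of the 10 genes had 1 probe set.

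RNA from 3 mouse cell lines was hybridised to Affymetrix Gene 1.0 ST arrays, with 3 arrays for each line that the labels call biological replicates. P19 is an embryonal carcinoma (EC) line, the stem cells of a teratocarcinoma. It was grown in ES medium with leukemia inhibitory factor, and the methods name no feeder cells for it. P19 NTES7 is a single line of pluripotent stem cells obtained from a cloned blastocyst after P19 nuclei were transferred into enucleated B6D2F1 oocytes, and it carries the P19 nuclear genome. R1 is an embryonic stem (ES) cell line made from normal mouse embryos. P19 NTES7 and R1 cells were grown in the same medium on mouse embryonic fibroblasts treated with mitomycin C, and ES cells were collected free of feeders for the arrays. Each line stands for 1 genotype. Feeder cells are named for P19 NTES7 and R1 and not for P19, so line and feeder culture cannot be told apart in comparisons with P19. P19 NTES7 and R1 shared feeder culture and differ in genotype and origin. No source used here says that the arrays of a line had separate cultures, so p-values cover only the spread among the arrays, which may be technical.

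Phospholipase C enzymes cut the membrane lipid phosphatidylinositol bisphosphate into inositol trisphosphate, which releases calcium from internal stores, and diacylglycerol, which stays in the membrane. The beta enzymes are switched on by G proteins of the Gq class, the gamma enzymes by receptor and cytoplasmic tyrosine kinases, the epsilon enzyme by small GTPases of the Ras family, and the delta enzymes mainly by calcium. Protein kinase C alpha and beta are conventional isozymes that need both calcium and diacylglycerol, and they are the classic targets of phorbol esters. In pluripotent mouse cells protein kinase C signalling is known for promoting exit from self-renewal.

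The values are intensities after Robust Multichip Average (RMA) on the linear scale, and the median of all values was 16.9. A gene below this median is close to the floor of the array, and folds that use such a value are not exact. Intensities of different genes depend on their probes and were not set against each other, and the marker sums below compare lines only. A gene was called where its Benjamini-Hochberg adjusted p from limma was under 0.01 and its fold was over 2. Within a line the arrays correlated at 0.989 to 0.998 (Pearson, log2 of all probe sets), and both lowest values were those of R1 replicate 3 with the other R1 arrays. On a scale where the P19 mean is 0 and the R1 mean is 1, over the probe sets called between these lines, the median position of R1 replicate 3 was 0.938, against 0.986 and 1.003 for R1 replicates 1 and 2. Beside the R1 differences that this array moved most, the value without it is given.

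All 10 markers of pluripotent cells were measured, and none was below the median of all values in any line. Their summed intensity was 5511 to 5813 in P19 cells, 4780 to 5374 in P19 NTES7 cells and 9027 to 9252 in R1 cells. The sum is ruled by the brightest markers, and the 10 did not move together. Of the 10, 5 were called higher and 0 lower in R1 than in P19 (background 3.85% and 3.46%). Between P19 and R1 the mean of Dppa5a went from 19.5 to 2238. Pou5f1 (2196 to 1470) and Lin28a (266 to 156) went the other way. Of 24 fibroblast markers, 23 were measured, and their summed intensity was 434 to 457 in P19 cells, 1519 to 1825 in P19 NTES7 cells and 2786 to 3174 in R1 cells. Of these 23, 16 were below the median of all values in P19 cells, 3 in P19 NTES7 cells and 2 in R1 cells. Higher in R1 than in P19 were 16 of the 23 by call, where 3.85% of all genes were called higher. The summed fibroblast markers thus had the order P19, P19 NTES7, R1 from low to high. The means of Plce1, Prkcb, Plcg2 and Plcg1 had the opposite order. Those of Plcb4, Plcb1 and Plcd3 had the same order, although the Plcd3 arrays overlapped between all lines. Plcb3, Plcd1 and Prkca had neither order. The part of the fibroblast markers in the values below was not tested. In bulk RNA, fewer cells of a type and less RNA per cell cannot be told apart.

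The starts of the 3 picked genes are shown because these genes separated the lines most among the 10. Each sequence is the 250 bases before the RefSeq gene start, on the strand of the gene, in build GRCm38.p6, with the GC box core GGGCGG in capitals. Prkcb lies at chr7:122288875-122289124 on the plus strand, Plcg2 at chr8:117498025-117498274 on the plus strand and Plce1 at chr19:38523947-38524196 on the plus strand.
Prkcb: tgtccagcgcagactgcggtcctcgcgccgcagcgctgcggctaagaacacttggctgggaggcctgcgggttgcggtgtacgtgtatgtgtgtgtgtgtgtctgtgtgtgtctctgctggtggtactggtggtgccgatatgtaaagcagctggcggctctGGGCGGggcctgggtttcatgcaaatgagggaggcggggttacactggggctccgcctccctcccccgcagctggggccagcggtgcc
Plcg2: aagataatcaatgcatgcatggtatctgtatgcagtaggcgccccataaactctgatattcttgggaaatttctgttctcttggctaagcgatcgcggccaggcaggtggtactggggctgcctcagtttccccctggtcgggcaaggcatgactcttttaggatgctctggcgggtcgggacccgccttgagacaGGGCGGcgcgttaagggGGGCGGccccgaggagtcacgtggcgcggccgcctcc
Plce1: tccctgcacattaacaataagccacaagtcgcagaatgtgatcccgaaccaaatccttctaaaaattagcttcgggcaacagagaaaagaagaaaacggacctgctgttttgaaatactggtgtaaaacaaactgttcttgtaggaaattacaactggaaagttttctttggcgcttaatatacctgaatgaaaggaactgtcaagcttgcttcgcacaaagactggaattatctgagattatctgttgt

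Short motifs were searched on both strands of such windows, and none of them contains another. GGGCGG is the core bound by Sp1 family factors, TATAAA is the TATA box, and TGANTCA, with N for any base, is the AP-1 element through which phorbol esters are known to act. GGGCGG was present in 33.0% of 32536 windows of the same length, TATAAA in 12.3% and TGANTCA in 6.73%. The Prkcb window held 1 GGGCGG and the Plcg2 window held 2, both with 17 CG dinucleotides. The Plce1 window held 0 GGGCGG and 6 CG dinucleotides, equal to the median of all windows, and 38.8% of its bases were G or C, against 65.2% for Prkcb and 59.6% for Plcg2. All 10 genes matched the promoter table, with 12 windows because Plcb4 and Plcd1 had alternative starts. None of the 12 windows held TATAAA, and TGANTCA was found in the window of Plcb3 only. The window of Plcb4 at chr2:135659297-135659546 had the most CG dinucleotides of the 12, at 42, with 7 GGGCGG, while its other window had 3 and 0. A match is a description of the letters and not a binding site, and these windows do not order the 3 picked genes by their intensities.

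Plce1, Prkcb and Plcg2 were all brightest in P19 and dimmest in R1, and they differed in where P19 NTES7 lay between these lines. Plce1 encodes phospholipase C epsilon, which joins Ras family signals to lipid hydrolysis. Its intensities were 371, 411 and 502 on the P19 arrays, 102, 87.3 and 68.3 on the P19 NTES7 arrays and 15.7, 15.4 and 15.5 on the R1 arrays. No array of a line overlapped another line, and all R1 arrays were below the median of all values. The mean was 428 ± 66.9 in P19 cells, 85.9 ± 16.9 in P19 NTES7 cells and 15.5 ± 0.144 in R1 cells (SD, n = 3 arrays for each line). R1 was thus 27.4-fold lower than P19, a log2 difference of -4.77 (SE 0.14), with R1 just below the median of all values. P19 NTES7 was 5.01-fold lower than P19 (log2 difference -2.32) and 5.46-fold higher than R1 (log2 difference 2.45). With 16 added to every intensity before the log, the log2 differences were -3.81 between R1 and P19 and 1.68 between P19 NTES7 and R1. By absolute log2 difference between R1 and P19, Plce1 ranked at 9 of 19938 genes, which is how it came to be picked.

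Prkcb encodes protein kinase C beta, a conventional isozyme best known in B cells. It was at 227, 225 and 226 on the P19 arrays, 56.8, 54.1 and 55.3 on the P19 NTES7 arrays and 14.9, 17.6 and 27.0 on the R1 arrays. The P19 and P19 NTES7 arrays were tight and far apart, and the R1 arrays were lower still, with R1 replicate 3 the highest of them. Its mean was 226 ± 1.18 in P19 cells, 55.4 ± 1.37 in P19 NTES7 cells and 19.8 ± 6.35 in R1 cells. R1 was 11.8-fold lower than P19 (log2 difference -3.56, SE 0.16), and -3.80 on the log2 scale without R1 replicate 3 and -2.77 with 16 added to every intensity. P19 NTES7 was 4.08-fold lower than P19 (log2 difference -2.03) and 2.89-fold higher than R1 (log2 difference 1.53, and 1.77 without R1 replicate 3).

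Plcg2 encodes phospholipase C gamma 2, the form that blood cells use below their antigen and Fc receptors. On the P19 arrays it was at 518, 545 and 521, on the P19 NTES7 arrays at 494, 364 and 395, and on the R1 arrays at 49.7, 54.4 and 65.1. P19 NTES7 lay close below P19 without overlap, and R1 was far below both while still above the median of all values. The means were 528 ± 14.6, 418 ± 68.2 and 56.4 ± 7.88 in P19, P19 NTES7 and R1. R1 was 9.42-fold lower than P19 (log2 difference -3.24, SE 0.13, and -3.34 without R1 replicate 3). P19 NTES7 was 1.27-fold lower than P19 (log2 difference -0.35) and 7.39-fold higher than R1 (log2 difference 2.89). This gene ranked at 57 of 19938 by the absolute log2 difference of R1 and P19, and at 4312 by that of P19 NTES7 and P19.

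On the log2 scale from P19 at 0 to R1 at 1, the P19 NTES7 arrays stood at 0.487 ± 0.0612 for Plce1, 0.570 ± 0.01004 for Prkcb and 0.108 ± 0.0708 for Plcg2 (mean ± SD, n = 3 arrays). Prkcb and Plce1 were thus near the middle in the derived line, and Plcg2 was near its P19 value. The SDs cover the P19 NTES7 arrays only, with the P19 and R1 means held fixed. For Prkcb the log2 difference of R1 and P19 was -3.80 to -3.37 with 1 R1 array left out. Its position is therefore less precise than its SD alone. For comparison, the median position of the 3 P19 NTES7 arrays over all probe sets called between R1 and P19 was 0.374 to 0.406. The positions of the picked genes use the contrasts they were picked on and were not tested.

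**Figure D1:**
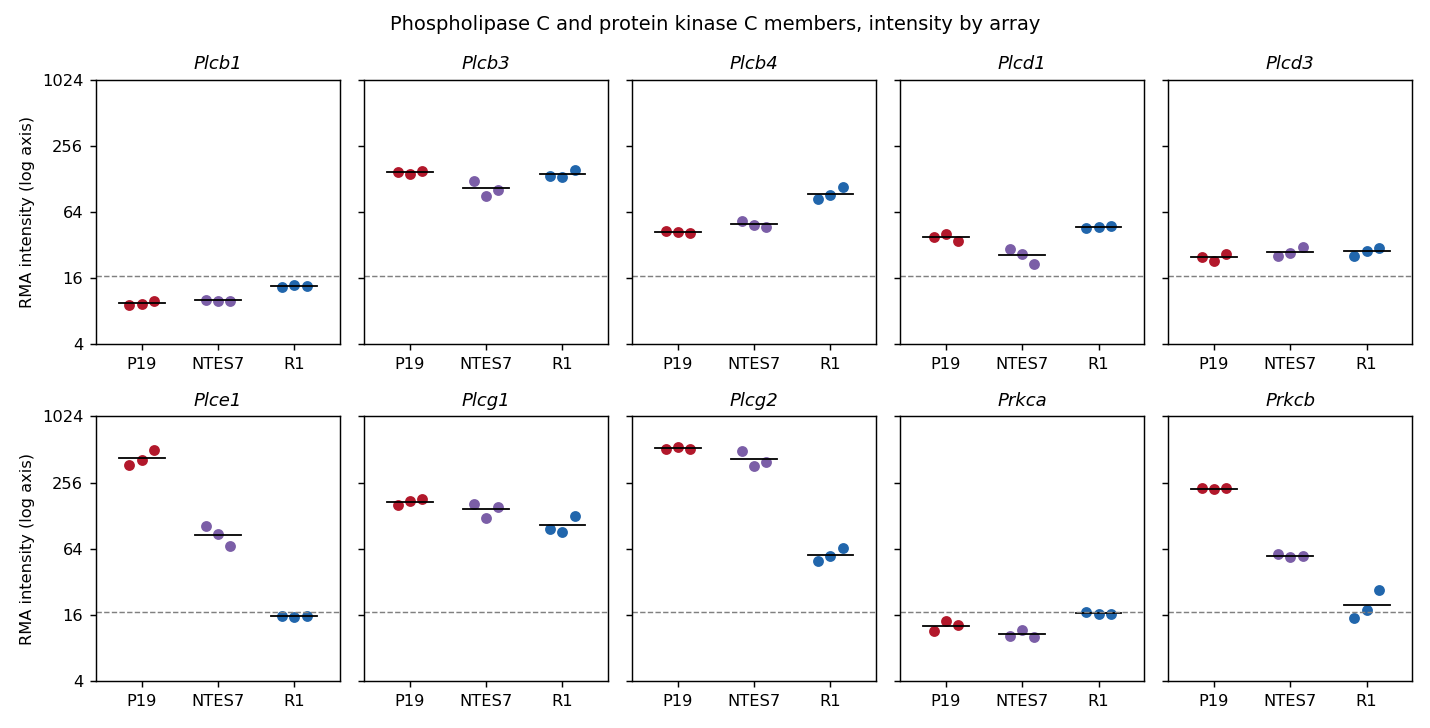
RMA intensity (log axis) of the 10 phospholipase C and protein kinase C genes on each of the 9 arrays, with a point for each array, a bar at the mean of each line and a dashed line at the median of all values, 16.9. Plce1, Prkcb and Plcg2 were highest in P19 and lowest in R1, Plcb4 was highest in R1, and Plcb1 stayed below the median in every line.

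The genes with the most similar pattern over the 9 arrays were found from log2 values centred on each gene's own mean, by the root mean square difference. For Plce1 these were Cyp2b23 (0.394), Car14 (0.416) and Ehd3 (0.425). For Prkcb they were Ehd3 (0.208), Tmem98 (0.256) and Frmd4b (0.261), and for Plcg2 they were Herc6 (0.216), AI506816 (0.242) and Cep41 (0.252). Ehd3, which encodes a protein of membrane recycling, was thus close to both Prkcb and Plce1. It had a mean of 278 ± 17.5 in P19 cells, 63.4 ± 4.32 in P19 NTES7 cells and 19.4 ± 1.33 in R1 cells.

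Among the 7 genes that were not picked, 1 was called higher in R1 than in P19 and 0 were called lower. Of all 19938 genes, 3.85% were called higher and 3.46% lower in this comparison, and 1 of 7 genes is too few to be read against that share. At an unadjusted p under 0.05 from limma, 4 of the 7 were higher in R1 and 1 was lower. The share of all genes at this unadjusted limit is not given here. Counts at it, here and below, are therefore not to be set against the shares of called genes. Between P19 NTES7 and P19, 0 of the 7 were called in either direction (background 1.44% higher and 1.38% lower), with 0 higher and 3 lower at an unadjusted p under 0.05. Between P19 NTES7 and R1, 0 were called in either direction (background 1.68% higher and 2.84% lower), with 1 higher and 5 lower at an unadjusted p under 0.05. The median log2 difference of the 7 genes was 0.32 between R1 and P19, -0.24 between P19 NTES7 and P19 and -0.44 between P19 NTES7 and R1, against 0.02, 0.02 and 0.01 over all genes. Each pair of these comparisons shares a line, so their values are not independent.

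Plcb4, a Gq-activated enzyme best known in cerebellum and retina, rose in R1. It was at 43.2, 42.2 and 41.1 on the P19 arrays, 52.6, 49.0 and 46.2 on the P19 NTES7 arrays and 83.5, 91.4 and 108 on the R1 arrays. The 3 lines did not overlap, and every R1 array was well above the rest. R1 was 2.22-fold higher than P19 (log2 difference 1.15, SE 0.11, limma adjusted p = 1.86e-06), and 1.05 on the log2 scale without R1 replicate 3. Adding 16 to every intensity before the log brought this log2 difference to 0.92, under the fold limit. P19 NTES7 was 1.90-fold lower than R1 (log2 difference -0.93, adjusted p = 2.39e-05), which passed the p limit and missed the fold limit. Without R1 replicate 1 that difference was -1.01 and was called, and without R1 replicate 3 it was -0.83 and was not. Between P19 NTES7 and P19 the log2 difference was 0.22 (adjusted p = 0.187).

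Plcb1, its neighbour on chromosome 2 with 0 protein-coding genes between them in the RefSeq annotation of GRCm38.p6, is the beta enzyme prominent in the forebrain. It was at 9.14, 9.26 and 9.88 in P19 cells, 10.1, 9.96 and 9.98 in P19 NTES7 cells and 13.3, 13.9 and 13.6 in R1 cells. The R1 arrays were the highest without overlap, yet all 9 arrays were below the median of all values. The log2 difference of R1 and P19 was 0.53 (SE 0.09, limma adjusted p = 3.04e-04) and that of P19 NTES7 and R1 was -0.44 (adjusted p = 0.00183), both short of the fold limit. P19 NTES7 and P19 differed by 0.09 on the log2 scale (adjusted p = 0.551).

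Plcb3, a broadly expressed beta enzyme that also answers to the beta-gamma subunits of G proteins, was lowest in P19 NTES7. It was at 148, 143 and 151 in P19 cells, 124, 90.1 and 102 in P19 NTES7 cells and 135, 134 and 155 in R1 cells. The P19 NTES7 arrays did not overlap either of the other lines, while R1 and P19 overlapped. P19 NTES7 and P19 differed by -0.50 on the log2 scale (adjusted p = 0.00945 from limma), and P19 NTES7 and R1 by -0.43 (adjusted p = 0.0154), both short of the fold limit. The limma adjusted p of the former was 0.0178 after a second quantile normalization, over the p limit. With 1 array left out it ran from 0.00231 (without P19 NTES7 replicate 1) to 0.0494 (without P19 NTES7 replicate 2). R1 and P19 differed by -0.06 (SE 0.12, adjusted p = 0.730), and the sign of this difference turned when the arrays were quantile normalized again (0.03).

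The delta enzymes are the most calcium-sensitive of the family. Plcd1, known for its role in skin and hair follicles, was at 37.5, 40.6 and 35.0 in P19 cells, 29.5, 26.7 and 21.6 in P19 NTES7 cells and 45.8, 47.0 and 47.8 in R1 cells. The derived line was the lowest and R1 the highest, with no overlap among the lines. P19 NTES7 was 1.82-fold lower than R1 (log2 difference -0.86, limma adjusted p = 9.07e-05). It differed from P19 by -0.55 (adjusted p = 0.00471), and both differences were short of the fold limit. With 1 array left out, the limma adjusted p against P19 ran from 0.00267 (without P19 NTES7 replicate 1) to 0.0293 (without P19 replicate 2). The latter is over the p limit. R1 and P19 differed by 0.32 (SE 0.12, adjusted p = 0.0539). Like Plcb3, this gene was outside the range between P19 and R1 in P19 NTES7.

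Plcd3, the delta form that acts with Plcd1 in the placenta, had overlapping arrays in every line. It was at 24.9, 22.9 and 26.5 in P19 cells, 25.4, 27.3 and 30.9 in P19 NTES7 cells and 25.6, 28.3 and 30.3 in R1 cells. All 3 lines overlapped, and none of the 3 log2 differences (0.18, 0.17 and -0.01) passed the p limit, with adjusted p = 0.246, 0.348 and 0.960.

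Plcg1, the gamma enzyme that growth factor receptors recruit in most tissues, was lower in R1 than in P19, the same direction as Plcg2 and of smaller size. It was at 161, 173 and 181 in P19 cells, 164, 122 and 154 in P19 NTES7 cells and 97.0, 90.9 and 127 in R1 cells. R1 did not overlap P19, while P19 NTES7 overlapped both. R1 was 1.65-fold lower than P19 (log2 difference -0.73, SE 0.14, limma adjusted p = 0.00114), and -0.87 on the log2 scale without R1 replicate 3. P19 NTES7 differed from P19 by -0.24 (adjusted p = 0.283) and from R1 by 0.48 (adjusted p = 0.0209). With 1 array left out, the latter ran from 0.39 (adjusted p = 0.102, without R1 replicate 2) to 0.63 (adjusted p = 0.00252, without R1 replicate 3). None of these passed the fold limit.

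Prkca, the widely expressed conventional protein kinase C alpha, was near the floor. It was at 11.4, 13.9 and 12.9 in P19 cells, 10.3, 11.6 and 9.94 in P19 NTES7 cells and 17.01, 16.2 and 16.1 in R1 cells. R1 was above both other lines without overlap, and P19 and P19 NTES7 overlapped. P19 NTES7 was 1.55-fold lower than R1 (log2 difference -0.63, limma adjusted p = 4.77e-04), and R1 and P19 differed by 0.37 (SE 0.10, adjusted p = 0.0138). Of the 2 conventional kinases, Prkca had its highest mean in R1 and Prkcb its lowest, while P19 NTES7 was below P19 in the mean of both. For Prkca the difference of R1 and P19 missed the p limit, and Prkcb was picked and not tested. Only Prkcb was far above the median of all values in any line.

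**Figure D2:**
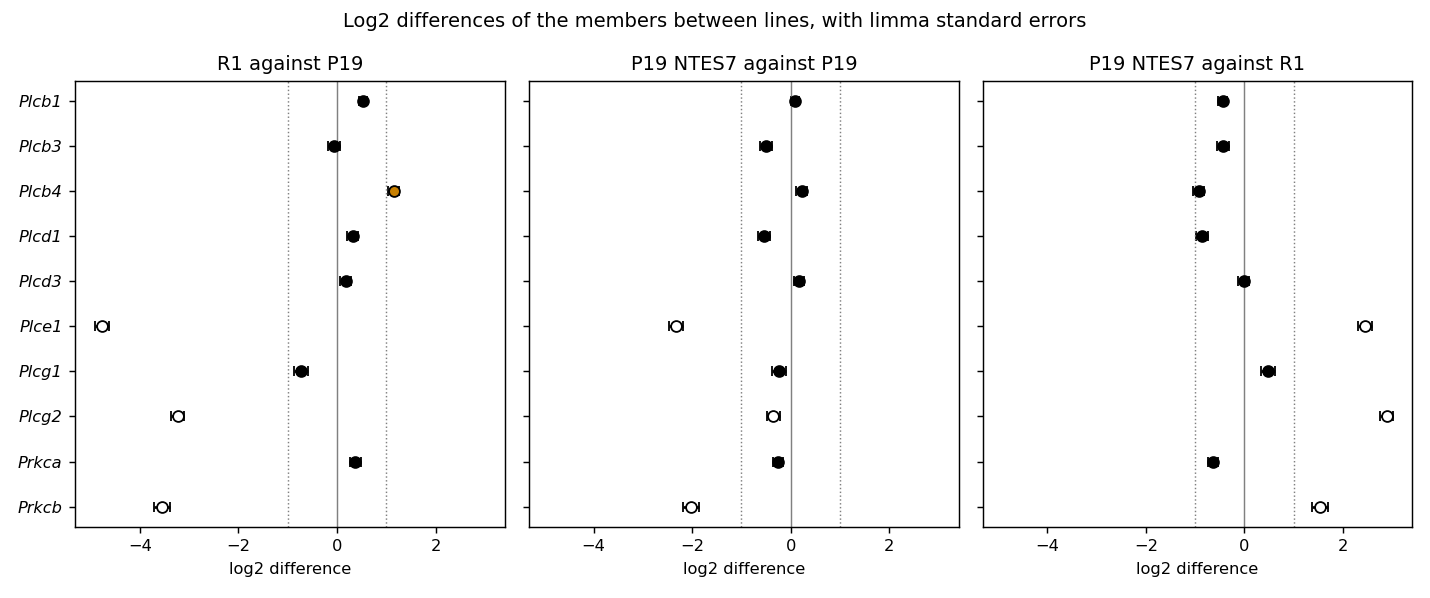
Log2 differences of the 10 genes in the 3 comparisons, with limma standard errors as bars, dotted lines at the fold limit of 2, open points for the picked genes, which carry no test, and an orange point for a called gene. Plcb4 between R1 and P19, at 1.15, is the called gene among the 7 that were tested.

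Of 10 other phospholipase C isozymes and related proteins, Plch1, an eta enzyme of neurons, was called lower in R1 than in P19. No other was called in any comparison. Of all genes, 3.46% were called lower in R1, and 1 of 10 genes is too few to be read against that share. At an unadjusted p under 0.05 from limma, 1 of the 10 was higher and 5 were lower in R1 than in P19. No share of all genes is given for that limit. Plch1 was at 83.3, 76.8 and 75.2 in P19 cells, 52.4, 45.2 and 45.0 in P19 NTES7 cells and 24.9, 28.8 and 44.3 in R1 cells. The 3 lines did not overlap, although R1 replicate 3 was near P19 NTES7. Its log2 difference was -1.31 between R1 and P19 (adjusted p = 3.73e-05) and -0.72 between P19 NTES7 and P19 (adjusted p = 0.00805). The former was -1.55 without R1 replicate 3. Plcl2, a related protein with no catalytic activity, was at 33.3 ± 1.97, 34.9 ± 1.47 and 25.4 ± 2.52 in P19, P19 NTES7 and R1 (n = 3 arrays).

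Of 6 other protein kinase C isozymes, Prkch, the eta isozyme of epithelia, which needs diacylglycerol and no calcium, was called in 2 comparisons. It was at 15.9, 15.9 and 19.2 in P19 cells, 20.4, 17.5 and 15.0 in P19 NTES7 cells and 44.9, 45.3 and 31.0 in R1 cells. P19 and P19 NTES7 overlapped near the median of all values, and R1 was above both. The log2 difference was 1.23 between R1 and P19 (limma adjusted p = 3.22e-05) and -1.19 between P19 NTES7 and R1 (adjusted p = 7.22e-05), or 1.41 and -1.37 without R1 replicate 3. A second probe set of Prkch was below the median of all values in each line and differed by 0.38 between R1 and P19, and the mean of both probe sets missed the fold limit, at 0.81 and -0.76 in these comparisons. Prkcd, the delta isozyme that restrains proliferation in several cell types, was at 71.4, 75.5 and 69.7 in P19 cells, 62.0, 52.5 and 59.8 in P19 NTES7 cells and 37.0, 35.4 and 52.6 in R1 cells, with a log2 difference of -0.82 between R1 and P19 (adjusted p = 4.02e-04, and -0.995 without R1 replicate 3) and no call. Prkci, the atypical iota isozyme of cell polarity, had overlapping arrays in all lines, at 462 ± 38.1, 448 ± 43.9 and 448 ± 6.17. Both probe sets of Prkcz, the other atypical isozyme, missed the fold limit, and they differed in sign between R1 and P19, at 0.03 and -0.46.

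**Figure D3:**
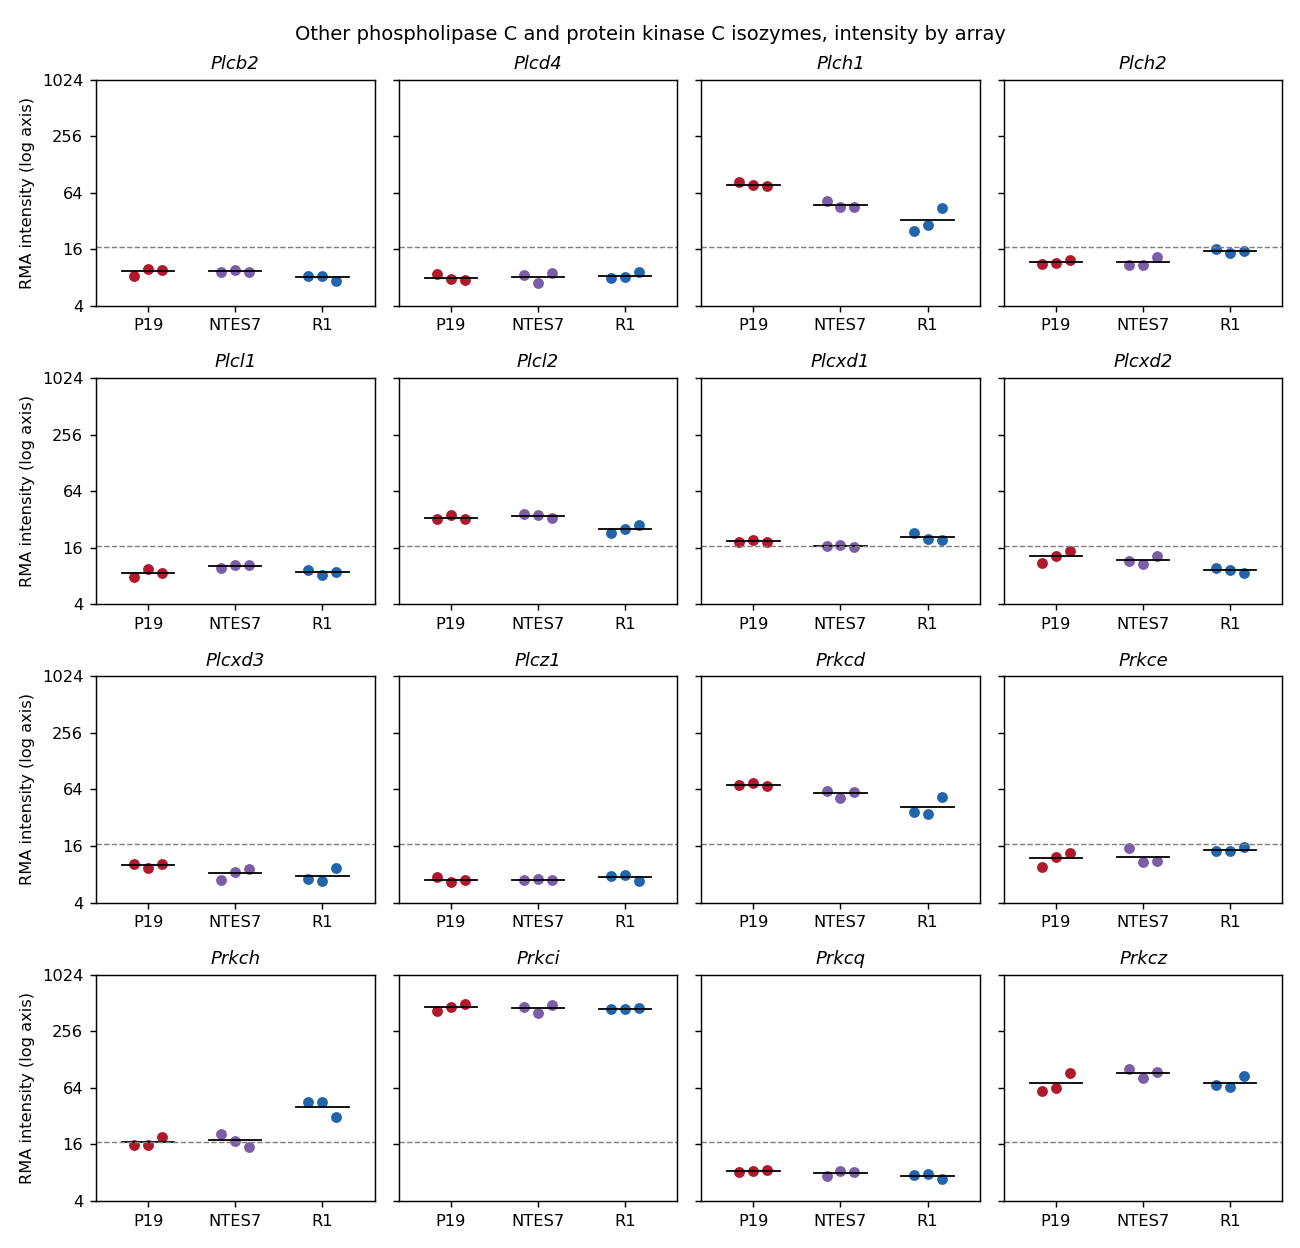
RMA intensity (log axis) of 16 other phospholipase C and protein kinase C isozymes and related proteins on each of the 9 arrays. Values are from the brightest probe set of each gene. A bar marks the mean of each line and a dashed line the median of all values, 16.9. Plch1 was highest in P19, Prkch was highest in R1, and Prkci overlapped between the 3 lines.

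The genes around these enzymes were read from 15 lists with 190 entries, of which 171 were measured. Of the 171 genes, 10 (5.85%) were called higher and 7 (4.09%) lower in R1 than in P19, against backgrounds of 3.85% and 3.46%. Between P19 NTES7 and P19, 3 (1.75%) were higher and 6 (3.51%) lower, against 1.44% and 1.38%. Between P19 NTES7 and R1, 3 (1.75%) were higher and 10 (5.85%) lower, against 1.68% and 2.84%. The median log2 difference of the lists was -0.02, -0.03 and 0.03 in these comparisons, against 0.02, 0.02 and 0.01 over all genes. The lists were chosen with earlier results of these data known and were not tested as sets. The same shares of all genes belong beside the count of each single list, and each list is too small to be read against them. Adding 16 to every intensity before the log ended 1 or both calls of F2r, Htr2a, Inpp5a, Llgl1, Llgl2, Mras, Pip5k1b, Plch1, Prkch, Prkd1, Rap2b, Rasgrp2, Shb, Syk and Wwc1, each of which kept its direction.

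Upstream of the beta enzymes, 0 of 4 Gq class G protein subunits were called by limma in any comparison, and at an unadjusted p under 0.05 the counts higher and lower were 1 and 1 in R1 against P19, 1 and 1 in P19 NTES7 against P19, and 1 and 2 in P19 NTES7 against R1. Gnaq, the Gq alpha subunit, was at 94.5 ± 1.22 in P19 cells, 70.0 ± 7.08 in P19 NTES7 cells and 67.9 ± 2.75 in R1 cells, with a log2 difference of -0.48 between R1 and P19 (adjusted p = 0.00180). Of 27 Gq-coupled receptors, F2r and Htr2a were called higher in R1 than in P19, where 3.85% of all genes were called higher. F2r, the thrombin receptor, was at 39.0, 47.4 and 35.5 in P19 cells, 40.3, 30.0 and 22.7 in P19 NTES7 cells and 90.6, 94.2 and 84.5 in R1 cells. Every R1 array was above the arrays of the other lines, with log2 differences of 1.15 to P19 (limma adjusted p = 1.45e-04) and -1.57 for P19 NTES7 against R1 (adjusted p = 1.52e-05). Htr2a, a serotonin receptor, was below the median of all values in P19 and P19 NTES7, at 9.73 ± 0.746 and 13.4 ± 0.991, and at 20.6 ± 4.33 in R1 (log2 difference 1.06 to P19, adjusted p = 5.33e-05). That difference missed the fold limit without R1 replicate 1 (0.98) or R1 replicate 2 (0.95), and was 1.25 without R1 replicate 3.

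Among 11 RGS proteins, which speed up GTP hydrolysis by G protein alpha subunits, Rgs16 was the 1 called gene. It was at 34.6, 32.0 and 44.7 in P19 cells, 115, 116 and 106 in P19 NTES7 cells and 89.7, 87.6 and 103 in R1 cells. P19 was below both other lines, with log2 differences of 1.34 for R1 (adjusted p = 1.84e-06 from limma) and 1.61 for P19 NTES7 (adjusted p = 1.17e-06). Of 11 small GTPases that can act on phospholipase C epsilon, Mras rose in R1, to 30.4 ± 1.42 from 10.2 ± 0.588 in P19, with P19 NTES7 at 9.83 ± 0.859 (log2 difference of R1 and P19 1.57, adjusted p = 4.03e-08). Both P19 and P19 NTES7 were below the median of all values for Mras, and with 16 added to every intensity its log2 difference was 0.82 and under the fold limit. Rap2b, a relative of Rap1, was called between P19 NTES7 and R1, at 21.8 ± 4.42 and 43.4 ± 3.54 (log2 difference -1.01, adjusted p = 1.02e-04). It missed the fold limit without P19 NTES7 replicate 1 (-0.84) or R1 replicate 2 (-0.95).

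Of 14 kinases and adaptors of the gamma enzymes, 3 were called higher and 1 lower in R1 than in P19, where 3.85% and 3.46% of all genes were called. Gab1, a docking adaptor of growth factor receptors, was at 31.6, 35.4 and 44.9 in P19 cells, 118, 101 and 108 in P19 NTES7 cells and 318, 317 and 307 in R1 cells. The lines formed 3 separate steps, and all 3 comparisons were called, at log2 differences of 3.09 (R1 against P19, limma adjusted p = 4.79e-10), 1.56 (P19 NTES7 against P19, adjusted p = 1.36e-06) and -1.53 (P19 NTES7 against R1, adjusted p = 8.34e-07). Syk, a tyrosine kinase that acts above Plcg2 in blood cells, was at 20.8 ± 2.51, 15.5 ± 1.51 and 44.7 ± 9.54 in P19, P19 NTES7 and R1, with a log2 difference of 1.09 between R1 and P19 (adjusted p = 4.47e-05), which was 0.93 and missed the fold limit without R1 replicate 3. Fyn, a Src family kinase, fell to 39.0 ± 12.4 in R1 from 111 ± 4.65 in P19, with P19 NTES7 at 64.1 ± 15.1 (log2 difference of R1 and P19 -1.56, adjusted p = 2.60e-05, and -1.80 without R1 replicate 3). Yes1, another Src family kinase, was the third gene called higher in R1, at 77.7 ± 1.97 in P19 and 198 ± 8.63 in R1 (log2 difference 1.35, adjusted p = 1.45e-07), and Shb, an adaptor, was called higher in P19 NTES7 (72.7, 47.2 and 63.9) than in R1 (30.6, 28.7 and 25.5), at a log2 difference of 1.10 that became 0.96 and missed the fold limit without P19 NTES7 replicate 1. Among the genes called between R1 and P19, Gab1, Syk and Yes1 thus ran opposite to Plcg2 and Plcg1, and Fyn ran the same way. Shb also ran the same way, at a log2 difference of -0.68 and without a call. Plcg2 was picked and not tested, and Plcg1 was not called.

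The lipid substrate and both products had their own sets of enzymes. Of 15 genes that make the substrate, Pip5k1b, a phosphatidylinositol phosphate kinase, was lower in P19 NTES7 cells (21.4 ± 2.36) than in P19 cells (51.2 ± 6.20) and was called, at a log2 difference of -1.26 (adjusted p = 6.47e-06), with R1 at 37.3 ± 2.26. None of 11 inositol trisphosphate receptors and store-operated entry genes was called by limma in any comparison, and at an unadjusted p under 0.05 the counts higher and lower were 0 and 2, 2 and 2, and 4 and 2 in the same comparisons. Of 9 genes of inositol trisphosphate metabolism, Inpp5a, a phosphatase that inactivates it, fell from P19 to both other lines. It was at 121, 129 and 124 in P19 cells, 62.8, 58.0 and 48.7 in P19 NTES7 cells and 51.5, 54.2 and 63.1 in R1 cells, where the last 2 lines overlapped. Its log2 difference to P19 was -1.15 in R1 (adjusted p = 3.35e-06) and -1.15 in P19 NTES7 (adjusted p = 1.18e-05).

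Diacylglycerol kinases, which turn diacylglycerol into phosphatidic acid and so end its signal, had 2 of 8 genes called higher in R1 than in P19. Of all genes, 3.85% were called higher in this comparison, and 2 of 8 genes is too few to be read against that share. Dgka was at 49.1, 47.8 and 46.9 in P19 cells, 39.5, 36.6 and 28.4 in P19 NTES7 cells and 162, 158 and 215 in R1 cells. Dgkh was at 17.6, 17.8 and 23.6 in P19 cells, 21.0, 24.6 and 25.3 in P19 NTES7 cells and 67.8, 69.8 and 73.7 in R1 cells. Both were high in R1 without overlap, with log2 differences from P19 of 1.88 for Dgka (adjusted p = 2.11e-07) and 1.85 for Dgkh (adjusted p = 7.68e-08), and both were also called between P19 NTES7 and R1, at -2.36 and -1.58. Without R1 replicate 3 the differences of Dgka were 1.74 and -2.21. Dgkk was at 28.8, 23.3 and 29.2 in P19 cells, 123, 101 and 87.0 in P19 NTES7 cells and 44.2, 44.9 and 29.1 in R1 cells. It was highest in the derived line, with log2 differences of 1.93 to P19 (limma adjusted p = 4.31e-06) and 1.41 to R1 (adjusted p = 3.98e-05, and 1.20 without R1 replicate 3), and P19 and R1 overlapped.

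Among 12 other diacylglycerol receptors, Rasgrp2, an exchange factor for Rap, was low in P19 NTES7 alone, at 14.9 ± 0.798 against 36.4 ± 5.44 in P19 and 35.6 ± 7.35 in R1. It was called lower there against both lines, at log2 differences of -1.28 (adjusted p = 4.45e-05) and -1.24 (adjusted p = 3.56e-05), the latter -1.42 without R1 replicate 3. Prkd1, protein kinase D1, was called higher in P19 NTES7 (33.7 ± 5.63) than in R1 (13.3 ± 1.46), at a log2 difference of 1.33 (adjusted p = 1.49e-05). Of 10 genes of protein kinase C maturation and anchoring, Phlpp1, a phosphatase that dephosphorylates the kinase, fell from 117 ± 4.49 in P19 to 45.7 ± 8.66 in P19 NTES7 and 42.0 ± 8.38 in R1, with log2 differences of -1.37 (adjusted p = 2.53e-05) and -1.49 (adjusted p = 3.85e-06), the latter -1.64 without R1 replicate 3.

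Of 10 genes of the atypical protein kinase C polarity complex, Llgl1 and Wwc1 were called lower in R1 than in P19 and Llgl2 was called between P19 NTES7 and R1. Of all genes, 3.46% were called lower in R1 than in P19 and 2.84% lower in P19 NTES7 than in R1. Llgl1, a polarity protein that the atypical kinase phosphorylates, was at 116 ± 6.29, 83.2 ± 18.7 and 54.9 ± 4.13 in P19, P19 NTES7 and R1 (log2 difference of R1 and P19 -1.09, adjusted p = 3.11e-05). Its paralog Llgl2 had another order, at 26.3 ± 2.10, 18.1 ± 1.23 and 47.2 ± 3.24. Wwc1, the scaffold KIBRA, was at 76.0 ± 7.02, 45.6 ± 8.69 and 34.6 ± 2.01 (log2 difference of R1 and P19 -1.13, adjusted p = 1.18e-05). Of 13 protein kinase C substrates, Gap43, a growth cone protein, was called lower than P19 in both other lines, and Marcks, which binds the lipid substrate at the membrane until it is phosphorylated, was called lower in P19 NTES7. Gap43 was at 190, 175 and 233 in P19 cells, 98.6, 96.8 and 77.05 in P19 NTES7 cells and 74.0, 70.0 and 78.9 in R1 cells. Marcks was at 252, 269 and 248 in P19 cells, 127, 113 and 103 in P19 NTES7 cells and 132, 139 and 136 in R1 cells. For both substrates P19 was above every array of the other lines, and the log2 difference of P19 NTES7 and P19 was -1.13 for Gap43 (adjusted p = 3.24e-05) and -1.17 for Marcks (adjusted p = 2.69e-06).

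**Figure D4:**
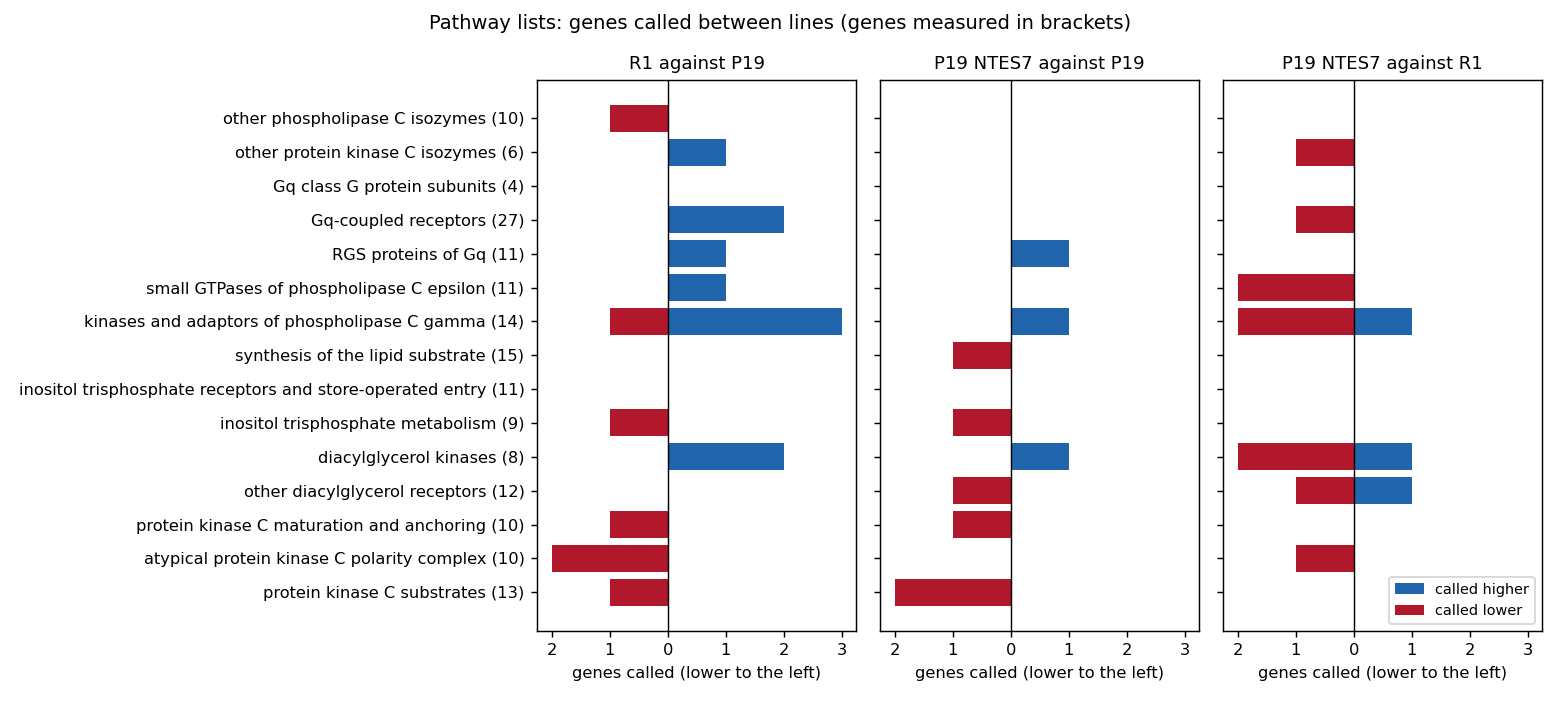
Number of genes called by limma in each of the 15 lists, with higher counts to the right in blue and lower counts to the left in red, for the 3 comparisons and with the number of genes measured in brackets. The gamma kinases and adaptors have 3 calls higher and 1 lower between R1 and P19, and the lists of Gq subunits and of inositol trisphosphate receptors have none.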

How the data were processed

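The deposited intensities of 28853 probe sets on 9 arrays were made by the authors with Robust Multichip Average and are on the linear scale. The array medians were 16.5 to 17.5, so the stated scaling of the median is absent from these values. The labels name the second line only as pluripotent stem cells from P19, and it was taken as P19 NTES7 from the study's array tables.

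Log2 intensities were compared in R 4.3.3 with limma 3.58.1, using 1 mean for each line and all 9 arrays in 1 fit, and p-values were Benjamini-Hochberg adjusted over all probe sets of a comparison. The limits of 0.01 and 2-fold are those of the methods, but 0.01 was set here on the adjusted limma p, where the methods set it on an unadjusted p. The fit was tested on simulated data. The platform annotation gave 21789 probe sets 1 symbol, 1621 several and 5443 none, and the brightest probe set stood for a gene. The number of arrays limits the precision: the median SD of log2 values was 0.106, 0.132 and 0.121 for the P19, P19 NTES7 and R1 arrays.

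The members, the lists and the markers were chosen with earlier results of these data known. Named were all 10 members, up to 3 called genes of each list with the largest differences, and the 3 genes most like each picked gene. Other genes in the text, Prkcd, Prkci, Prkcz, Plcl2, Gnaq, Yes1 and Shb, were chosen after their values were seen. Sequences are from RefSeq (GRCm38.p6). Alternatives changed the normalization, filter, pseudocount, probe set rule, variance model, arrays and limits.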

Additional observations from a re-analysis of the deposited data

How the results depend on the processing

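Among the 7 genes that were not picked, the pseudocount of 16 on the log2 scale brought the count called higher in R1 than in P19 from 1 to 0. With no fold limit the counts were 2 higher and 1 lower between R1 and P19, 2 lower between P19 NTES7 and P19 and 4 lower between P19 NTES7 and R1. The shares of all genes with no fold limit are not given here, so counts without it have no background. Leaving out 1 array at a time gave 0 to 1 lower between P19 NTES7 and R1, the 1 being Plcb4 without R1 replicate 1. For the 171 list genes, the pseudocount gave 5 higher and 3 lower between R1 and P19 (from 10 and 7), 3 lower between P19 NTES7 and P19 (from 6), and 1 higher and 4 lower between P19 NTES7 and R1 (from 3 and 10). It ended calls of F2r, Htr2a, Inpp5a, Llgl1, Llgl2, Mras, Pip5k1b, Plch1, Prkch, Prkd1, Rap2b, Rasgrp2, Shb, Syk and Wwc1. With no fold limit these were 25 and 30 between R1 and P19, 16 and 17 between P19 NTES7 and P19, and 22 and 21 between P19 NTES7 and R1. Leaving out 1 array gave 2 to 5 list genes higher between P19 NTES7 and R1, with 5 without R1 replicate 3. Other counts of the 7 genes and of the 171 list genes together stayed within 1.5 times of those reported. Counts of single lists are small, and over all settings 93 of them moved and 1617 did not. The log2 difference of Plcb3 between R1 and P19 was 0.0301 after a second quantile normalization. That of Plcd3 between P19 NTES7 and R1 was 0.0158 there, and -0.0885 to 0.0530 with 1 array left out. The pseudocount also gave Plce1 -3.81, Plcg2 -2.91 and Prkcb -2.77 between R1 and P19, and Plce1 1.68 between P19 NTES7 and R1. The cause of these shifts was not tested.

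Arrays with the same replicate number did not deviate together (correlations of -0.22 to 0.04), so the numbers were not taken as pairs. With the replicate block, 1 of the 7 genes was called higher in R1 than in P19 and 0 in the other directions, and the list counts were 10 and 7, 3 and 6, and 3 and 10, as without it.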
